A study of Homo sapiens with 6 samples.

Results

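The 10 genes described here, SDF2L1, MANF, CRELD2, HYOU1, CALR, CANX, SEC61B, SEC61A1, SEL1L and XBP1, encode chaperones, translocon subunits, a degradation adaptor and a transcription factor of the endoplasmic reticulum (ER), and were taken from 14884 genes that could be tied to 1 name on the array. They were selected on their role and on the log2 values of these same 6 arrays, with the difference between the groups known, so that difference is given as a description, with no p-value, and the count of them past the threshold used for all genes supports nothing. For each gene the probe with the highest mean over the 6 arrays was used, and the further probe of HYOU1 is shown beside it. The arrays hold total RNA of THP-1 cells, an established line of human acute monocytic leukaemia. In 3 samples the cells carried a vector expressing a short hairpin RNA against RKIP (RKIP shRNA), and in 3 samples the empty vector without a hairpin (control). Both had been selected and kept in 1.5 µg/mL puromycin. The vector was psi-LVRU6GP in both groups. The labels call the arrays biological replicates, but give neither the number of hairpins nor whether replicates were separate transductions, so p-values measure the spread between these samples, which may be technical.

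Secreted and membrane proteins enter the ER through the SEC61 channel, which the ribosome docks on. Inside, chaperones of the HSP70 class and the lectins calreticulin and calnexin help them fold, and chains that fail to fold are pulled back to the cytosol and degraded. When folding falls behind, the sensors IRE1, PERK and ATF6 start the unfolded protein response, in which IRE1 splices the XBP1 transcript and ATF6 and XBP1 switch on chaperone genes, among them SDF2L1, MANF, CRELD2 and HYOU1. In monocytes and their leukaemic relatives this machinery serves the making of granule enzymes, receptors and cytokines.

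ATF6 is known to bind the ER stress element (ERSE), in which CCAAT is followed after 9 bases by CCACG, and its shorter form ERSE-II, in which ATTGG is followed after 1 base by CCACG. Both were searched on both strands of the RefSeq promoter windows of GRCh38.p14, which run from 250 bases before to 50 bases after a start site, and all 10 genes had a window. ERSE was found for CRELD2, CALR, CANX and XBP1, and ERSE-II for SDF2L1 and HYOU1. Over all windows, ERSE was in 0.0769% of 35116 and ERSE-II in 0.0541%. Counted by gene, as some genes have several windows, ERSE was found for 0.0916% of 27305 and ERSE-II for 0.0696%. The 10 genes were selected on their role, so nothing is read from finding the elements in them. The stretches are printed because these 6 genes hold either ERSE or ERSE-II, both rare over all windows. They run 5′ to 3′ on the strand of the gene, with the element in capitals. Where the element lies on the opposite strand, the capitals begin with CGTGG.
CRELD2 (ERSE, chr22:49918518-49918577, plus strand): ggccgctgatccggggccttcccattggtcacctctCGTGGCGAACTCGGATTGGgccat
CALR (ERSE, chr19:12938359-12938407, plus strand): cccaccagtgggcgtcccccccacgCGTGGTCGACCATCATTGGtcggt
CANX (ERSE, chr5:179698742-179698801, plus strand): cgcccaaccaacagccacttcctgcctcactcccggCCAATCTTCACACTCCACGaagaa
XBP1 (ERSE, chr22:28800598-28800657, minus strand): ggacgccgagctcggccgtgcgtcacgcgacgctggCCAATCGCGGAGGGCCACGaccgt
SDF2L1 (ERSE-II, chr22:21642070-21642129, plus strand): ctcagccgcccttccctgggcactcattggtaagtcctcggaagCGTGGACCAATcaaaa
HYOU1 (ERSE-II nearer the start, chr11:119057269-119057328, minus strand): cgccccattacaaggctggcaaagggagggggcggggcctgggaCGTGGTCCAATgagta
HYOU1 (ERSE-II farther from the start, chr11:119057375-119057434, minus strand): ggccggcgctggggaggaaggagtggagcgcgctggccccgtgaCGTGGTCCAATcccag

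The elements began 80 bases before the start site in CRELD2, 225 in CALR, 52 in XBP1 and 188 in SDF2L1. In HYOU1 they began 79 and 185 bases before it, and the farther copy overlapped a TGACGTGG, the core that XBP1 is known to prefer, which 0.729% of all windows held. CANX has 4 windows, and its element began 9, 151 or 189 bases before the start site in those that held it. MANF, SEC61A1, SEL1L and SEC61B had no match to either element. The stretches of MANF and SEL1L around a CCACG on the opposite strand, whose complement is in capitals, are shown for comparison. The SEL1L stretch ends in CGTGGtccaa, which equals the CGTGGTCCAAT of HYOU1 but for the last base, which is not printed. SEL1L thus holds a near match to ERSE-II that differs by 1 base. CCACG alone was in 38.1% of all windows.
MANF (CCACG, chr3:51385099-51385158, plus strand): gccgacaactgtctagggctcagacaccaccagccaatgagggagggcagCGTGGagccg
SEL1L (CCACG, chr14:81534023-81534082, minus strand): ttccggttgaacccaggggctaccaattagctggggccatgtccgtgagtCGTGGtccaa

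PEBP1, which encodes RKIP, had log2 values of 8.25, 8.18 and 8.24 in the RKIP shRNA arrays, against 9.52, 9.77 and 9.75 in the control arrays. Its log2 level fell by 1.46 to 36.4% of control (SE 0.09, adjusted p = 0.000228 in limma). For PEBP1 by itself, p = 0.1 in a two-sided exact permutation test, which 3 arrays against 3 cannot go below. Over all genes 20.2% passed an adjusted p under 0.05 (limma, Benjamini-Hochberg), 1495 higher and 1515 lower, and the higher count was 963 without RKIP shRNA replicate 1, 969 without control replicate 2 and 983 without control replicate 3. The myeloid markers MPO, CTSG and SPI1 had mean log2 values of 13.03, 11.09 and 9.27 in RKIP shRNA cells and 12.76, 10.58 and 8.78 in control cells, above the median of all rows of 4.08, whereas CD14 lay below that median in both groups. Of 10 measured myeloid markers 5 rose (LYZ by 2.55, CTSG, SPI1, CD68 and MPO) and 3 fell (CD86 by 0.90, FLT3 and CD4), with a summed linear level of 12375 to 13263 in RKIP shRNA arrays and 9421 to 9690 in control arrays, and their part in the results was not tested. MPO, the brightest probe of these 10 markers, weighs most in that linear sum, so the sum does not show a rise of the markers as a set. The MPO call was lost in 6 of 6 fits without 1 array, and the CD4 call in 3. In RKIP shRNA cells the mean of FLT3 was also under that median. Values are log2 levels of 1 row of the array per gene, called a probe here, and such a row may summarise several sequences on the array. Brightness also depends on the probe, so no gene's level is ranked against another's. The median of all rows serves only as a mark for dim probes. In bulk RNA, fewer cells of a type and less RNA per cell cannot be told apart.

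Of the 10 genes, 8 had a higher mean and 2 a lower mean in RKIP shRNA cells. The differences ran from 2.88-fold higher for SDF2L1 to 0.749 of the control level for SEL1L. Past the threshold used for all genes stood 5 higher and 1 lower, where 10.0% of all genes were called higher and 10.2% lower, and nothing is read from these counts. The 3 RKIP shRNA values did not overlap the 3 control values for 9 of the 10 genes, 8 higher and 1 lower, and for 37.9% of all genes, 19.8% higher and 18.1% lower. The median log2 difference of the 10 genes was 0.31, and of all genes 0.02.

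**Figure D1:**
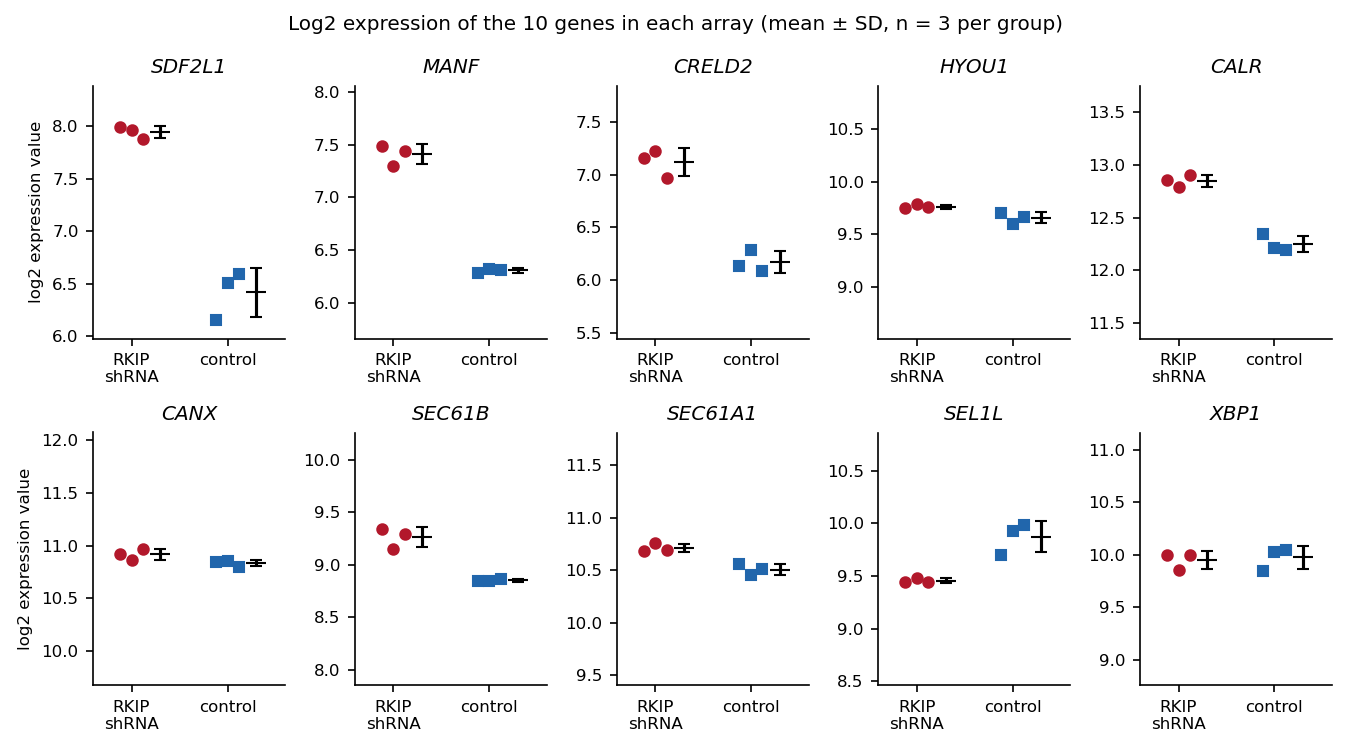
Log2 expression value (vertical axis, the same span of 2.4 units in each panel) of the 10 genes in each array, with RKIP shRNA as red circles, control as blue squares, and bars for mean ± SD (n = 3 per group). SDF2L1, MANF and CRELD2 stand about 1 unit or more apart between the groups, SEL1L is lower in RKIP shRNA, and the values of XBP1 overlap.

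SDF2L1, a cofactor that keeps substrates in the cycle of the HSP70 chaperone BiP, had log2 values of 7.99, 7.96 and 7.88 in the RKIP shRNA arrays, against 6.15, 6.51 and 6.59 in the control arrays. All 3 RKIP shRNA values were at least 1.29 above the highest control value, and the control arrays spread more (SD 0.23) than the RKIP shRNA arrays (SD 0.06), with control replicate 1 lowest. The log2 difference was 1.52 (SE 0.12), or 2.88-fold with a 95% interval from 2.36 to 3.50. It ranked 18 among all genes when these were ordered from the most raised.

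MANF, a small secreted protein of the ER that binds BiP and is known as a survival factor, had log2 values of 7.49, 7.30 and 7.45 in the RKIP shRNA arrays and 6.29, 6.32 and 6.31 in the control arrays. The control values lay within 0.04 of each other (6.31 ± 0.02, SD, n = 3), and every RKIP shRNA value was higher (7.41 ± 0.10). The log2 difference was 1.11 (SE 0.07), or 2.15-fold with an interval from 1.91 to 2.43. CRELD2, a luminal protein with disulfide isomerase activity, had 7.16, 7.22 and 6.97 in the RKIP shRNA arrays and 6.13, 6.29 and 6.09 in the control arrays, without overlap. Its log2 difference was 0.95 (SE 0.09), or 1.93-fold with an interval from 1.65 to 2.26.

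HYOU1, the large HSP70 relative that acts as nucleotide exchange factor of BiP, had 9.75, 9.79 and 9.76 in the RKIP shRNA arrays and 9.71, 9.60 and 9.66 in the control arrays. The groups did not overlap but lay only 0.04 apart, and the log2 difference was 0.11 (SE 0.06), or 1.08-fold with an interval from 0.968 to 1.20. Its second probe had 6.36, 6.40 and 6.64 in the RKIP shRNA arrays and 6.04, 6.11 and 6.22 in the control arrays. Its log2 difference was 0.34 (SE 0.10), or 1.27-fold with an interval from 1.08 to 1.49. The size of the HYOU1 difference, and whether its interval reaches below the control level, therefore depend on the probe. The mean of both probes gave a log2 difference of 0.23.

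CALR, calreticulin, the soluble lectin chaperone that also stores calcium, had log2 values of 12.86, 12.79 and 12.91 in the RKIP shRNA arrays and 12.34, 12.21 and 12.19 in the control arrays. The RKIP shRNA arrays were all higher, by a log2 difference of 0.60 (SE 0.07), or 1.52-fold with an interval from 1.35 to 1.71. CANX, calnexin, the membrane-bound partner of the same cycle, had 10.92, 10.86 and 10.97 in the RKIP shRNA arrays and 10.85, 10.85 and 10.80 in the control arrays. The nearest values of the groups were 0.0066 apart, and the log2 difference was 0.08 (SE 0.07), or 1.06-fold with an interval from 0.951 to 1.18. This difference was 0.02 after quantile normalization.

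SEC61B, the small beta subunit of the SEC61 channel, had log2 values of 9.34, 9.15 and 9.29 in the RKIP shRNA arrays and 8.84, 8.84 and 8.87 in the control arrays. It was higher in each RKIP shRNA array, with a log2 difference of 0.41 (SE 0.07), or 1.33-fold with an interval from 1.18 to 1.50. SEC61A1, the alpha subunit that forms the pore, had 10.69, 10.76 and 10.69 in the RKIP shRNA arrays and 10.56, 10.45 and 10.51 in the control arrays. These also did not overlap, with a log2 difference of 0.21 (SE 0.07), or 1.15-fold with an interval from 1.04 to 1.29. The interval is not adjusted for the number of genes, and SEC61A1 was not past the threshold used for all genes.

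SEL1L, the adaptor that holds the ubiquitin ligase HRD1 in its complex for ER-associated degradation, had log2 values of 9.45, 9.48 and 9.44 in the RKIP shRNA arrays and 9.70, 9.93 and 9.99 in the control arrays. It was the only one of the 10 genes whose RKIP shRNA values all lay below the control values, by a log2 difference of -0.42 (SE 0.09), which is 0.749 of the control level with an interval from 0.648 to 0.866. XBP1 had 10.00, 9.85 and 10.00 in the RKIP shRNA arrays and 9.85, 10.03 and 10.05 in the control arrays. Its groups overlapped, with a log2 difference of -0.03 (SE 0.09) and an interval of the fold from 0.853 to 1.13, and its sign turned to higher when RKIP shRNA replicate 2, control replicate 2 or control replicate 3 was left out. A gene-level value does not tell spliced from unspliced XBP1.

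**Figure D2:**
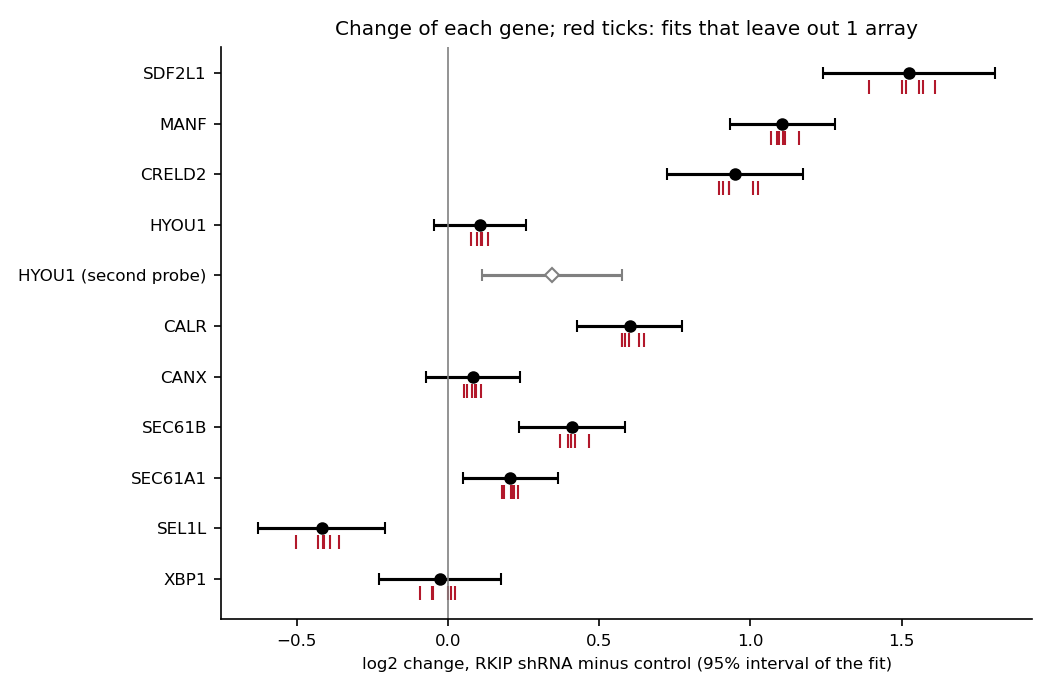
Log2 change of each of the 10 genes (RKIP shRNA minus control, horizontal axis) with its 95% interval, the second HYOU1 probe as an open grey diamond, and red ticks for the fits that left out 1 array. The ticks of SDF2L1 run from 1.39 to 1.61, those of SEL1L from -0.50 to -0.36, and those of XBP1 cross 0.

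Around these 10 genes, 9 lists by role named 158 other genes of the ER. Only 101 of them were analysed here, so the lists cover this machinery in part. Of these, 21 rose and 14 fell at a limma adjusted p under 0.05, and the other 66 missed it. That is 20.8% higher and 13.9% lower, beside 10.0% and 10.2% of all genes, and their median log2 change was 0.12 beside 0.02. All genes include dim ones, and 11915 of the 14884 encode proteins, so these shares do not compare like sets. With only genes above the median of all rows, 28 of the ER genes rose and 18 fell, beside 1887 and 1808 of all such genes. The counts of 21 and 14 both fell when any 1 array was left out, to 13 to 18 higher and 6 to 11 lower. Over all genes the counts also fell in every such fit, to 963 to 1212 higher and 1018 to 1270 lower. Among these ER genes the higher count was 13 without RKIP shRNA replicate 1 or control replicate 3. Their lower count was 6 without RKIP shRNA replicate 1 or 2 or control replicate 2 or 3, and 7 without control replicate 1. Of the 21 and 14 calls, 13 and 5 held in all 6 fits that left out 1 array. HSPA5 and HSP90B1, the main chaperones of the ER, were not analysed here.

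Among 8 other ER chaperones CNPY2 rose by 0.36 (SE 0.06, adjusted p = 0.0083), while CLGN, the calnexin relative calmegin, fell by 1.07 (SE 0.08, adjusted p = 0.00047) and MESD, a chaperone of LDL receptor family proteins, fell by 0.29. The MESD call was lost in 5 of 6 fits that left out 1 array. SDF2, the relative of SDF2L1, had a log2 change of 0.29 (adjusted p = 0.084), CRELD1, the relative of CRELD2, 0.08 (adjusted p = 0.46), and CDNF, the relative of MANF, 0.00 (adjusted p = 0.996). The differences between relatives were not tested.

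Of 15 genes of disulfide formation, 2 rose, 1 fell and 12 did not pass. PRDX4, the peroxiredoxin of the ER, rose by 0.97 (SE 0.08, adjusted p = 0.00060), with log2 means of 6.66 ± 0.09 in RKIP shRNA and 5.70 ± 0.08 in control cells (SD, n = 3). TXNDC11 rose by 0.41. ERO1B, an oxidase that recharges protein disulfide isomerase, fell by 0.95 (SE 0.09, adjusted p = 0.00075), whereas its relative ERO1A had -0.01 (adjusted p = 0.94). Of 6 genes of glycan trimming and glycoprotein folding, MLEC at 0.50 and MOGS at 0.40 rose, and PRKCSH at -0.33 and UGGT2 at -0.29 fell. Of the 6 fits without 1 array, MOGS missed the threshold in 6, UGGT2 in 5 and PRKCSH in 3.

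Of 18 other genes of the translocon, signal recognition particle and signal peptidase, 3 rose, 3 fell and 12 did not pass. SEC11C, a catalytic subunit of signal peptidase, rose by 0.51 (SE 0.09, adjusted p = 0.0077) and SRP14, of the signal recognition particle, by 0.46 (SE 0.08, adjusted p = 0.010). SEC61A2, the other alpha subunit gene, fell by 0.51 (SE 0.13, adjusted p = 0.038), a call lost in 4 of 6 fits that left out 1 array. SPCS3 rose by 0.27, SEC63 fell by 0.24 and TRAM2 fell by 0.22, and these calls were lost in all 6. SEC63 and TRAM2 are named after their values were seen. Of 10 oligosaccharyltransferase genes 3 rose and 0 fell by limma (4 and 0 at an unadjusted p under 0.05), with RPN2 at 0.29, MAGT1 at 0.40 and DAD1 at 0.35. None of these 3 held in all fits that left out 1 array, as RPN2 and MAGT1 were lost in 4 and DAD1 in 5.

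Of 13 measured degradation genes other than SEL1L, 9 had a log2 change above 0, 5 rose and 1 fell. VCP, the ATPase that extracts chains from the ER membrane, rose by 0.65 (SE 0.07, adjusted p = 0.0017), and its cofactors NPLOC4 and UFD1 rose by 0.61 (SE 0.08) and 0.49 (SE 0.09). DERL2, a derlin of the retrotranslocation channel, rose by 0.36. FAF2 at 0.34 and UBE2G2 at -0.32, both named after their values were seen, each lost their calls in 4 of 6 fits that left out 1 array.

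Regulators of the unfolded protein response were lower or missed the threshold. Of 12 measured besides XBP1, 4 fell and 0 rose by limma (5 and 1 at an unadjusted p under 0.05), with a median log2 change of -0.13. TRIB3, a pseudokinase induced by ATF4, fell by 1.31 (SE 0.06, adjusted p = 0.00013), ERN1, which encodes IRE1, by 0.66 (SE 0.08, adjusted p = 0.0018), DDIT3, which encodes CHOP, by 0.61 and ATF3 by 0.29. ERN1 stood at 5.94 ± 0.04 in RKIP shRNA and 6.60 ± 0.10 in control cells (log2, SD, n = 3). The ATF3 call was lost in 5 of 6 fits that left out 1 array. ATF4 had -0.28 without overlap of the groups and narrowly missed the threshold (adjusted p = 0.051 in limma). ATF6 had -0.13 (adjusted p = 0.28) and EIF2AK3, which encodes PERK, -0.12 (adjusted p = 0.34).

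Of 12 genes of COPII export and retrieval, 4 rose and 1 fell. TMED9 rose by 0.56, SURF4, a cargo receptor, by 0.46, SAR1A, the GTPase that starts the coat, by 0.43 and SEC16A by 0.27. KDELR1, a receptor that returns escaped chaperones and is named here after its value was seen, fell by 0.27. Without 1 array, KDELR1 missed the threshold in 6 of 6 fits and SEC16A in 5. Of 7 genes of ER calcium handling CALU rose by 0.33, a call lost in 4 of 6 such fits, and 0 fell by limma (1 at an unadjusted p under 0.05).

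**Figure D3:**
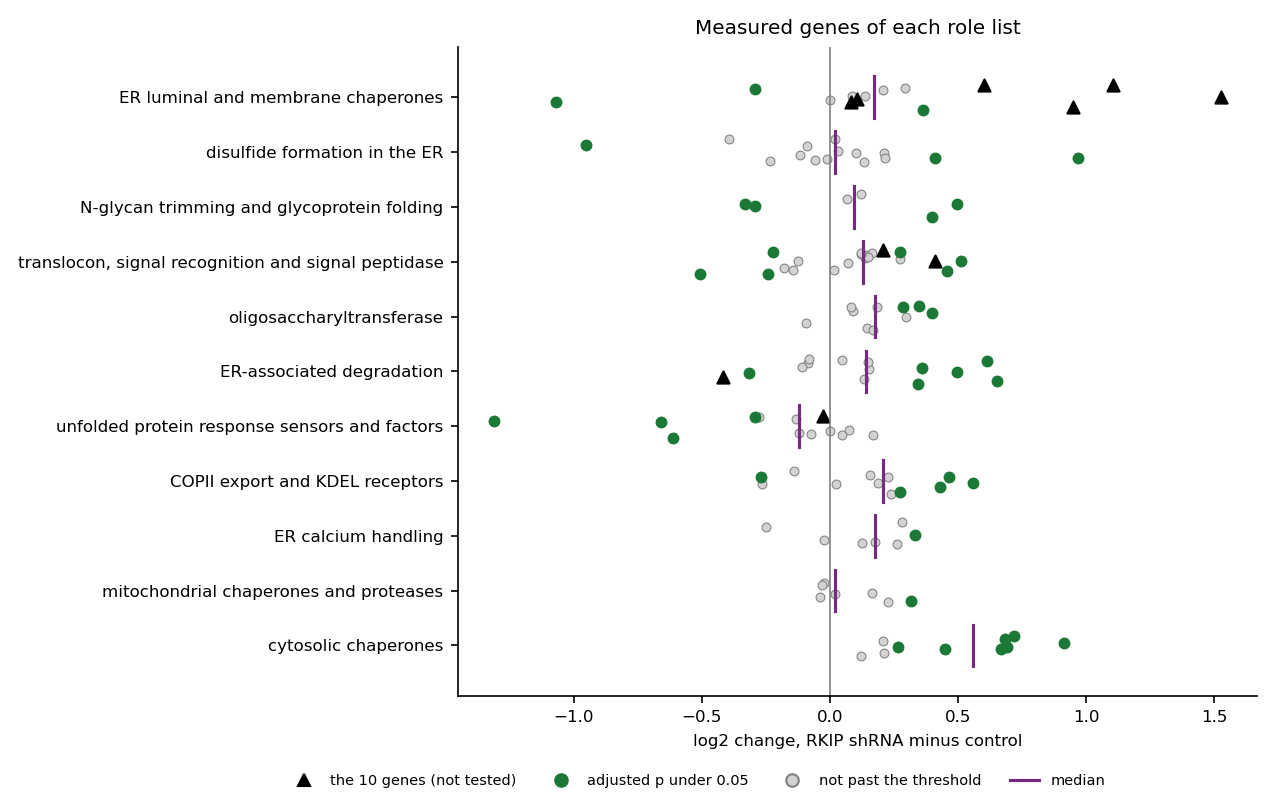
Log2 change (RKIP shRNA minus control) of each measured gene in 9 ER lists and 2 lists of other compartments, with the 10 genes as black triangles, genes past an adjusted p of 0.05 in green, others in grey, and the median of each list, the 10 genes included, as a purple bar. The regulators of the unfolded protein response have no green point above 0, and cytosolic chaperones none below 0.

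Chaperones of other compartments were set beside these, and 10 of 20 listed cytosolic and 7 of 12 listed mitochondrial genes were analysed. Of 10 measured cytosolic chaperones 7 rose and 0 fell by limma (9 and 0 at an unadjusted p under 0.05), with a median log2 change of 0.56, among them HSPH1 at 0.91 (SE 0.07, adjusted p = 0.00057), HSPA1A at 0.72, HSPA1B at 0.68 and HSPB1 at 0.67. HSPA1A and HSPA1B are near-identical copies whose probes may share signal. HSPA4L at 0.26, named after its value was seen, missed the threshold in 6 of 6 fits without 1 array. Of 7 mitochondrial chaperones and proteases, CLPB rose by 0.32, a call lost in 4 of 6 fits that left out 1 array, 0 fell by limma or at an unadjusted p under 0.05, and the median was 0.02. The difference between these lists and the ER genes was not tested.

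Other genes with these elements were set beside the 10. Of the 11 measured genes with ERSE, 7 were not among the 10 described here, and of these 0 rose and 1, ERO1B, fell by limma (1 and 2 at an unadjusted p under 0.05), beside 11.6% higher and 11.0% lower of 10749 genes with a window. FICD, which adds AMP to BiP, had a log2 change of 0.07 (adjusted p = 0.64) and SERP1, a translocon-associated protein, 0.01 (adjusted p = 0.94). Of 13 other genes with ERSE-II, 3 rose and 0 fell by limma (4 and 0 at an unadjusted p under 0.05), namely GYS1 at 0.65, RUVBL2 at 0.47 and SHCBP1 at 0.26. The SHCBP1 call was lost in 6 of 6 fits without 1 array. Both strands were searched, so genes with neighbouring starts may share 1 element and still be counted apart. This was not checked for GYS1 and RUVBL2, or for ZNF143 and ZNF143-AS1.

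**Figure D4:**
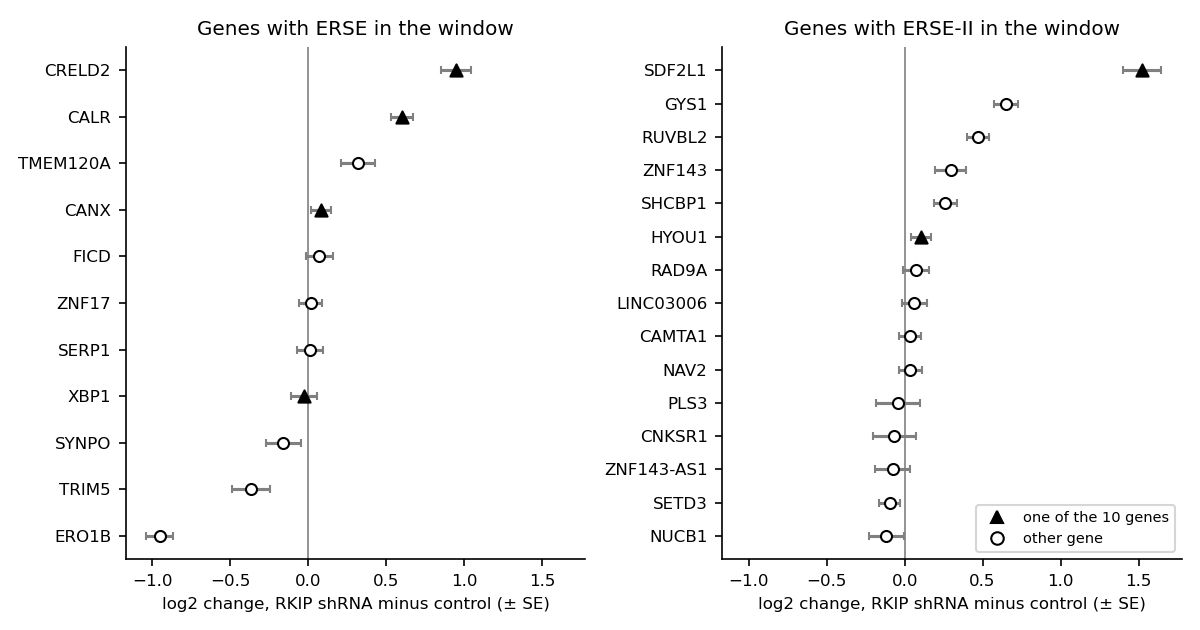
Log2 change (RKIP shRNA minus control, ± SE) of the 11 measured genes with ERSE and the 15 with ERSE-II in the promoter window, with the genes described here as black triangles and others as open circles. With ERSE the values run from -0.95 for ERO1B to 0.95 for CRELD2, and with ERSE-II SDF2L1 stands highest at 1.52.

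Markers of other cell types were read beside these results. Of 7 measured eosinophil and mast cell granule markers 4 rose, with CLC at 5.43, EPX at 4.94, TPSB2 at 0.56 and HDC at 0.52. The TPSB2 call was lost in 3 of 6 fits without 1 array and the HDC call in 4. The 7 summed to a linear level of 4109 to 4501 in RKIP shRNA arrays and 183 to 192 in control arrays, and 3 of them were dimmer than that median in both groups. Of 5 plasma cell markers, cells known for a large ER, 0 rose by limma or at an unadjusted p under 0.05, and MZB1, itself an ER protein of these cells, fell by 0.87 (SE 0.08, adjusted p = 0.00093). Their summed level was 115 to 121 in RKIP shRNA arrays and 132 to 147 in control arrays, and 3 of the 5 were dimmer than the median of all rows in both groups. The part of granule genes in the differences of the ER genes was not tested. Of 4 T cell, 3 B cell, 7 epithelial, 2 erythroid and 3 fibroblast markers, CD5 at 0.39 and FN1 at 0.86 rose, and VPREB3 at -0.38 and KRT18 at -0.29 fell. FN1 in control cells and VPREB3 in RKIP shRNA cells had means below the median of all rows, so the sizes of these differences rest on a group not shown to be above background. Of the 4, CD5 and VPREB3 missed the threshold in 5 of 6 fits without 1 array, and KRT18 in 4.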

How the data were processed

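The deposited table gives log2 expression values per probe for 6 arrays, 3 RKIP shRNA and 3 control, each from 250 ng of total RNA per the labels. No source used here gives how the authors summarised and normalised the deposited log2 values, or on which genome build. The log2 unit was read from the range, 0.72 to 14.0. Array medians lay between 4.06 and 4.10, no column was unused, and with 3 arrays a group their number limits the precision.

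Of 53617 rows, 16098 had 1 gene symbol in the array annotation, giving 14884 genes, the brightest probe kept for each. RKIP shRNA minus control was fitted in R 4.3.3 by limma 3.58.1 (lmFit, then eBayes with its default prior), with Benjamini-Hochberg adjustment over all genes and calls at an adjusted p under 0.05. The fit was also run on simulated, independent arrays with planted changes, which checks the code and does not vouch for the calls here.

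The 10 genes and the lists were chosen with earlier results of these data known. Named genes are the 10, PEBP1, up to 4 called genes a list by p, called markers, genes with an ER stress element, and the 5 genes closest to the mean profile, of which 1 is not reported here. The relatives SDF2, CRELD1, CDNF and ERO1A, the sensors ATF6 and EIF2AK3, and ATF4 were added after their values were seen. Promoter windows came from RefSeq (GRCh38.p14) and were matched by gene number. A list of proteins with an ER retention signal was planned and not analysed here. Alternatives were quantile normalization, centring on the median, weighted arrays, a prior that was trended and robust, a replicate block, only genes above the median of all rows, the mean of a gene's probes, 2 stricter thresholds and leaving out each array.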

Additional observations from a re-analysis of the deposited data

How the results depend on the processing

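The log2 changes of the 10 genes kept their direction under every alternative run except XBP1, whose change ran from -0.09 to 0.02 when single arrays were left out, so that the count of genes with a lower mean was 1 to 2. HYOU1 moved by more than the replicate SD to 0.23 with the mean of its probes, and CANX to 0.02 and SEC61A1 to 0.14 with quantile normalization. Over all genes, leaving out 1 array gave 963 to 1212 higher and 1018 to 1270 lower calls, an adjusted p under 0.01 gave 697 and 775, and a minimum log2 change of 0.5 gave 553 and 728. Among the 101 other ER genes, leaving out 1 array gave 13 to 18 higher and 6 to 11 lower calls, the stricter threshold 9 and 5, the minimum change 5 and 6, and a trended and robust prior 36 higher. The same replicate numbers did not pair the arrays, with correlations of deviations from 0.00 to 0.02 and at -0.02, and the replicate block gave 1033 higher and 1109 lower calls over all genes, with 14 and 6 among the other ER genes. PEBP1 ran from -1.54 to -1.41 on leaving out 1 array. The causes were not tested. With no call of detection above background, dim genes could not be told from absent ones.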

Other observations

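The mean of the centred log2 values of the 10 genes was 0.25, 0.21 and 0.22 in the RKIP shRNA arrays and -0.27, -0.21 and -0.21 in the control arrays. Among the 10, SEC61B lay closest to this mean profile, with a root mean square difference of 0.053 over the 6 arrays, and SDF2L1 at 0.548 and SEL1L at 0.441 lay farthest. Of 8425 other protein-coding genes above the median of all rows, those with the closest profiles included FBXL18, an F-box protein, at 0.014, TULP3, a tubby-like protein of cilia, and IDE, the insulin-degrading enzyme, each at 0.021, and CLPTM1L at 0.022, where the median was 0.243. The log2 changes of these 4 genes ran from 0.44 to 0.47. This likeness is chosen over the same 6 arrays and is a description.

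The wider promoter motifs were also counted. The core TGACGTGG was in the windows of 117 measured genes other than the 10, of which 14 rose and 16 fell by limma, and TGACGTCA in those of 323, of which 44 rose and 37 fell. Beside these stood 11.6% higher and 11.0% lower of all genes with a window.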
